A study of Mus musculus with 4 samples.

Results

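The genes described are 9 of the 22524 counted in sorted cells of mouse skin, and serve retinoid storage, synthesis, binding, breakdown and response: Lrat, Stra6, Rdh10, Aldh1a1, Aldh1a3, Crabp2, Cyp26b1, Rarg and Rarb. They were chosen by name for their places in the pathway, with Lrat known to be among the strongest differences between the groups compared here. Their values in that comparison are therefore a description and carry no test. All 9 had a row in the count files and all 9 passed the filter on low counts.

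The cells came from melanocytic dermal hyperplasia, a growth in the skin that precedes tumours. Both groups carried oncogenic NrasQ61K under the tyrosinase (Tyr) promoter, Tyr::CreERT2 and the R26R-LSL-tdTomato reporter, and tamoxifen was given to switch on tdTomato before positive cells were collected by flow sorting. The group labelled Ezh2Y646N also had ColA1-LSL-Ezh2Y646N, a Cre-dependent mutant of the histone methyltransferase Ezh2, and the group labelled NrasQ61K did not. Each group has 2 libraries, numbered 1 and 2. The labels give neither the age of the mice nor whether the libraries are from separate animals, so the spread between them may be technical. Total counts ran from 14808801 to 20600297 per library, and levels are given as CPM, counts scaled to a common library size.

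As a check of the labels, Ezh2 was at 135 and 91.6 CPM in the Ezh2Y646N libraries and at 171 and 75.1 CPM in the NrasQ61K ones, and the levels overlapped (log2 fold change of Ezh2Y646N over NrasQ61K in the fit, called the log2 difference here, -0.11, SE 0.39). Nras was at 95.1 and 77.9 against 97.6 and 83.5 CPM. Counts per gene do not separate mutant from endogenous RNA, so neither gene checks which library holds the mutant. Tyr, the melanocyte enzyme whose promoter drives the NrasQ61K and CreERT2 transgenes, was at 260.1 and 220.4 against 172 and 182 CPM. Markers of epidermis, hair follicle, fibroblasts and other cell types were present in every library beside those of melanocytes.

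Retinol reaches cells bound to a carrier protein and enters through the receptor Stra6. It is stored as retinyl ester by Lrat, or oxidised to retinal by dehydrogenases such as Rdh10 and then to retinoic acid by the Aldh1a enzymes. Retinoic acid is carried by Crabp2, broken down by Cyp26b1, and acts on genes through nuclear receptors of which Rarg is the main form in epidermis. In skin, retinoids are known for setting the balance between growth and cornification of the epidermis and for their part in the hair cycle.

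Stretches before a transcription start are shown for 3 genes. These are Lrat and Aldh1a2, the storage and synthesis genes with the largest differences, and Rarb, a receptor gene that retinoic acid itself can switch on. Each is the 250 bases before a RefSeq start on GRCm38.p6. In the Lrat (chr3:82903975-82904224, minus strand) and Aldh1a2 (chr9:71215539-71215788, plus strand) sequences capitals mark CpG dinucleotides. In the Rarb sequence (chr14:16575477-16575726, minus strand) they mark a direct repeat of the retinoic acid receptor half-site.
Lrat: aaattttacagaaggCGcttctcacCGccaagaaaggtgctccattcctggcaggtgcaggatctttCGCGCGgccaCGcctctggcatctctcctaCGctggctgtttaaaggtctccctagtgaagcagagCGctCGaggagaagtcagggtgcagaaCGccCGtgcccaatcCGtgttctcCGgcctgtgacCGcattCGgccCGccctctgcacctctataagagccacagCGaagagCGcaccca
Aldh1a2: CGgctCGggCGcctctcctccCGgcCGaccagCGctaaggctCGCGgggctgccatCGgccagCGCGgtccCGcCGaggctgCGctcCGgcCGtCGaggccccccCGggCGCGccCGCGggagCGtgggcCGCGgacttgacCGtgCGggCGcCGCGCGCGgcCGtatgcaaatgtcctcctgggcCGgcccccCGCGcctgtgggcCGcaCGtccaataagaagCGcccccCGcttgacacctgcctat
Rarb: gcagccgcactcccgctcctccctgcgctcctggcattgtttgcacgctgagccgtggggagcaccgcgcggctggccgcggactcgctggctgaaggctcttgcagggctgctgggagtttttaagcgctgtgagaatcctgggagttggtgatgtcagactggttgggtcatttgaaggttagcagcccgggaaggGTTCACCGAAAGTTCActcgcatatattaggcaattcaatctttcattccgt

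Of the 9 genes, 6 had at least 1 such stretch in the RefSeq table, 11 in all, and Rdh10, Aldh1a3 and Crabp2 had none there. The cores GGTCA and GTTCA were searched on both strands as direct repeats with 6 free letters between them (GGTCANNNNNNGGTCA, GGTCANNNNNNGTTCA, GTTCANNNNNNGGTCA and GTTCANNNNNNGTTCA), which is the spacing called DR5. The Rarb stretch held one, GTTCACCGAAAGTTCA, with its first letter 52 bases before the start. The other 10 stretches held none, and 0.210% of all 32841 stretches of this length did. The spacing searched was corrected after the Rarb stretch had been seen, so nothing is read from the rarity of its match. With 3 free letters (DR2) or 2 (DR1) none of the 11 matched, against 0.292% and 0.317% of all stretches. CpG dinucleotides numbered 40 before Aldh1a2, 18 before Lrat and 16 before Rarb, where the median over all stretches was 6. Fewer CpG dinucleotides than these were found in 98.7%, 78.3% and 74.6% of all stretches, in that order. The other listed genes had 11 and 10 (Rarg), 7 (Cyp26b1), 3 to 9 over 4 stretches (Stra6) and 3 and 1 (Aldh1a1), and Dhrs9, Rdh1 and Rdh9 had 3, 2 and 2. A match is a description of letters and not of binding.

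**Figure D1:**
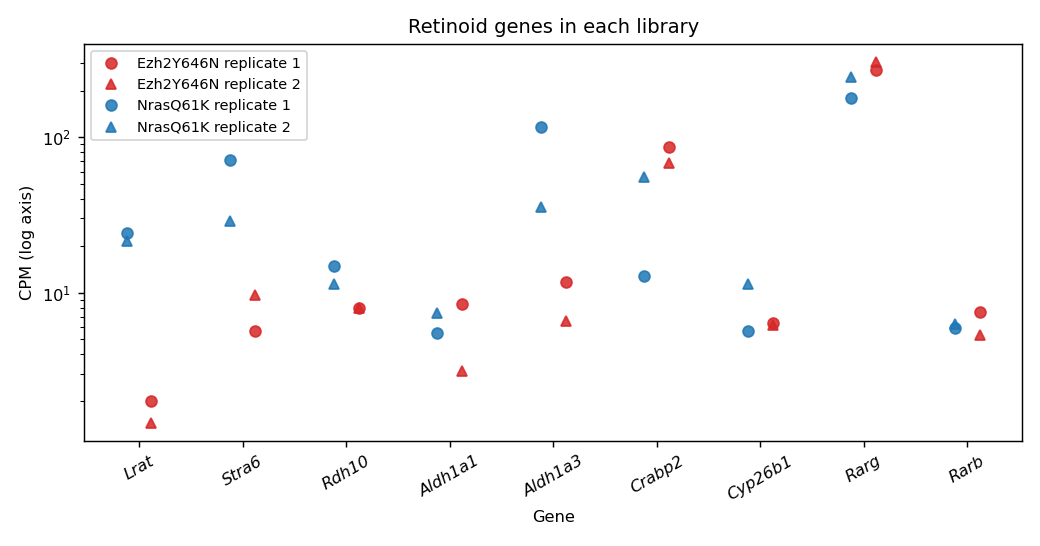
Level of each of the 9 genes in each library, in CPM on a log axis (circles replicate 1, triangles replicate 2; blue NrasQ61K, red Ezh2Y646N). The Lrat, Stra6 and Aldh1a3 points of the Ezh2Y646N libraries lie well below the others, and Aldh1a1, Cyp26b1 and Rarb points overlap.

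Lrat, Stra6 and Aldh1a3 were lower in both Ezh2Y646N libraries, Rdh10 was lower by less, and Aldh1a1, Cyp26b1 and Rarb overlapped between groups. Crabp2 and Rarg were higher there without a large gap. In edgeR's fit over all 14265 genes tested, 3 of the 9 passed an adjusted p of 0.05, all lower, where 1.77% of all tested genes passed in either direction and 0.673% were lower. Since the genes were listed with this contrast known, nothing is read from that count. Without Ezh2Y646N replicate 1, and likewise without Ezh2Y646N replicate 2, 1 of the 9 passed, Lrat. Levels were free of overlap between groups in 6 of the 9 genes (4 lower, 2 higher), and in 44.2% of all genes tested (23.1% lower, 21.1% higher). In bulk libraries fewer cells of a type and less RNA per cell cannot be told apart.

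Lrat (ENSMUSG00000028003, GRCm38 chromosome 3, 82892579 to 82903973), the acyltransferase that makes retinyl esters for storage, was counted at 2.01 and 1.45 CPM in the Ezh2Y646N libraries, against 24.1 and 21.4 CPM in the NrasQ61K ones. These values rest on 35 and 21 reads against 381 and 446. The 2 groups stood far apart and the libraries within each were close, with ratios of 1.39 and 1.13 between them. Mean levels were 1.73 ± 0.397 and 22.7 ± 1.90 CPM (SD, n = 2 each), 13.1-fold higher in NrasQ61K, and the fitted log2 difference was -3.70 (SE 0.36). It ran from -3.96 to -3.50 over every other setting tried.

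Stra6 (chromosome 9, 58063788 to 58153996), the membrane receptor that takes up retinol from its plasma carrier, was at 5.63 and 9.60 CPM in the Ezh2Y646N libraries, against 71.5 and 28.8 CPM in the NrasQ61K ones. Both NrasQ61K libraries were the higher ones, but they differed 2.48-fold from each other. The fitted log2 difference (Ezh2Y646N minus NrasQ61K) was -2.72 (SE 0.48). It was -1.92 without NrasQ61K replicate 1, the library with the highest level. Stra6 and Lrat thus shared their direction and differed in how evenly the NrasQ61K libraries showed it.

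Among the other genes of retinol transport and uptake, 7 of 10 were tested and 0 passed in edgeR. An unadjusted p under 0.05 was reached by 4 of them and by 14.3% of all genes tested. voom called 0 and DESeq2 1, lower, where DESeq2 called 378 of 14415 genes lower. Scarb1, a scavenger receptor for lipoproteins, was at 40.9 and 28.6 CPM in the Ezh2Y646N libraries, against 71.7 and 52.4 CPM in the NrasQ61K ones. Its groups did not overlap, and its log2 difference was -0.83 (SE 0.28, edgeR's adjusted p = 0.212).

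For esterification and its reversal, Dgat2, an acyltransferase of triglyceride synthesis, rose. It was at 161 and 106 CPM in the Ezh2Y646N libraries, against 15.9 and 38.4 CPM in the NrasQ61K ones, with a fitted log2 difference of 2.29 (SE 0.43, edgeR's adjusted p = 0.0498). The call was at the threshold and ended with RLE size factors (0.0523) and without either Ezh2Y646N library (0.170 without replicate 1, 0.0511 without replicate 2). It was 1 of 9 tested genes of this list to pass in edgeR, where 1.10% of all genes were called higher, with a median log2 difference of -0.12 over the list and -0.04 over all genes. Pnpla3, a lipase that can cleave retinyl esters, was at 12.4 and 14.4 against 5.50 and 5.99 CPM (log2 difference 1.21, SE 0.33, adjusted p = 0.1249). Beside Dgat2, the 12 sebaceous gland markers, 2 of which are also in the retinoid lists (Awat2 and Pparg), summed to 1361 and 1454 CPM in the Ezh2Y646N libraries, against 526 and 515 CPM in the NrasQ61K ones. Of its 11 tested genes 10 had a log2 difference above 0, as did 6562 of all 14265, and 1 passed. Awat1 and Dgat2l6 were at 0 in some library. Their part in the result was not tested.

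Per kilobase, Lrat made up 31.3% and 18.9% of the summed level of Lrat, Dgat1 and Dgat2 in the NrasQ61K libraries, and 0.671% and 0.703% in the Ezh2Y646N ones. Dgat1, which is also able to esterify retinol, was at 10.5 and 12.2 against 14.5 and 14.3 CPM. Lrat and Dgat2 thus lay in opposite directions while Dgat1 differed by less.

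**Figure D2:**
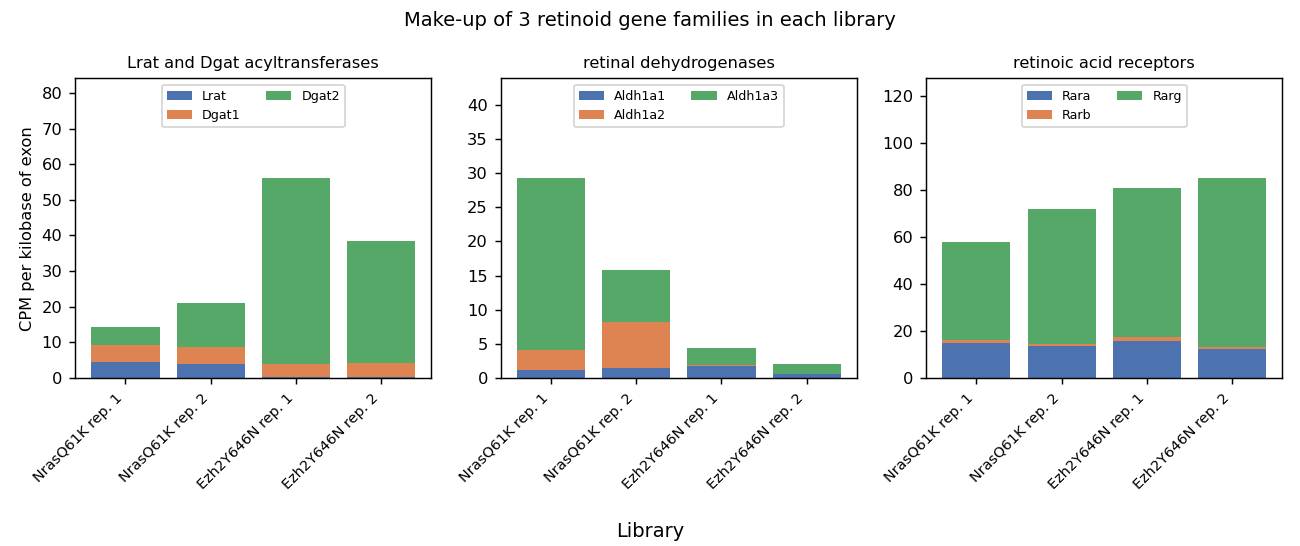
Level of the members of 3 gene families in each library, in CPM per kilobase of exon (linear axis, stacked bars, 1 bar per library). Lrat is nearly invisible and Dgat2 tall in the Ezh2Y646N libraries; the retinal dehydrogenases sum to 29.2 and 15.9 in the NrasQ61K libraries and to 4.40 and 2.08 in the others, and Rarg dominates the receptors in every library.

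The first oxidation, of retinol to retinal, is carried out by Rdh10 (chromosome 1, 16105774 to 16133734) in the embryo and in many adult tissues. Rdh10 was at 7.99 and 7.94 CPM in the Ezh2Y646N libraries, against 14.9 and 11.4 CPM in the NrasQ61K ones. The groups did not overlap, and the log2 difference was -0.72 (SE 0.32). It stayed between -0.86 and -0.52 over all settings tried.

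The list of other retinol and retinal dehydrogenases and reductases, the longest, held the most calls of the pathway. It also counts enzymes that cleave carotenoids. Of 21 listed genes 17 were tested, of which 2 rose and 1 fell in edgeR, with a median log2 difference of 0.53. voom gave the same counts, and DESeq2 called 7 higher and 1 lower. In edgeR, of all tested genes 1.10% were called higher and 0.673% lower. DESeq2 called more over all genes too, 505 higher and 378 lower of 14415, and voom 150 and 64 of 14265. The genes that rose were Rdh1 and Rdh9, short-chain dehydrogenases that act on retinols, which lie side by side on chromosome 10 (127759721 to 127768297 and 127776386 to 127792697). Rdh1 was at 19.4 and 16.6 CPM in the Ezh2Y646N libraries, against 0.885 and 1.87 CPM in the NrasQ61K ones, a fitted log2 difference of 3.68 (SE 0.45, edgeR's adjusted p = 0.0243). Both Ezh2Y646N libraries were far above both others, and Rdh1 passed under every setting tried, with adjusted p up to 0.0342. Rdh9 was at 30.9 and 25.6 against 1.58 and 4.80 CPM (3.12, SE 0.50, adjusted p = 0.0343), and lost its call without Ezh2Y646N replicate 1 (0.0817). Its counts are uncertain, since 64.1% of its exon bases also belong to Rdh16f1 on the same strand, as do 11.8% of those of Rdh1.

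Dhrs9 (chromosome 2, 69380445 to 69404533), another dehydrogenase able to oxidise retinol, fell. It was at 4.66 and 5.52 CPM in the Ezh2Y646N libraries, against 18.0 and 29.0 CPM in the NrasQ61K ones, a fitted log2 difference of -2.21 (SE 0.35, edgeR's adjusted p = 0.0340). All libraries of one group lay below all of the other; the call ended without Ezh2Y646N replicate 1 (0.0977). Dehydrogenases named that did not pass in edgeR were Rdh12 (log2 difference 1.24, adjusted p = 0.113), Adh1 (2.68, 0.107), Sdr16c5 (1.82, 0.103) and the most abundant, Rdh11 (0.53, 0.329). DESeq2 called Rdh12 (0.00941), Adh1 (0.000138) and Sdr16c5 (0.000802) higher, and voom called none of them (0.102, 0.226 and 0.0886). Adh1 was uneven between the Ezh2Y646N libraries, at 47.6 and 11.3 CPM, and passed without replicate 2 of that group (0.00937). Sdr16c5 and Rdh12 passed without NrasQ61K replicate 2 (0.00108 and 0.00314). Rdh16 had 20 and 13 reads in the Ezh2Y646N libraries and 0 in the others, at least 12.7-fold higher when 3 counts are allowed over that group, with an adjusted p of 0.102 in edgeR, 0.0703 in voom and 0.0326 in DESeq2.

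Beside the dehydrogenases that rose, markers of the suprabasal epidermis, where cornification proceeds, summed to 42702 and 30384 CPM in the Ezh2Y646N libraries, against 3565 and 9219.6 CPM in the NrasQ61K ones. All 9 of its tested genes had a log2 difference above 0, 3 passed, and none was at 0 in any library. Over all 14265 genes tested, 6562 lay above 0, and edgeR called 1.10% higher and 0.673% lower. The part of suprabasal cells in the values of Rdh1, Rdh9 and Dgat2 was not tested. Basal epidermis markers overlapped between groups, at 15701 and 24049 against 11863 and 26325 CPM, with 6 of 8 above 0 and 0 past the threshold. Outer root sheath and bulge markers overlapped too, at 2372 and 3108 against 2422 and 6099 CPM (5 of 9 above 0, 1 called lower). So did those of Schwann cells and glia, at 807 and 446 against 278 and 464 CPM (7 of 8 above 0, 1 called higher).

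The second oxidation gives retinoic acid, and it showed lower levels in 2 of its 3 main enzymes. Aldh1a3 (chromosome 7, 66390890 to 66427517) was at 11.7 and 6.56 CPM in the Ezh2Y646N libraries, against 116 and 35.7 CPM in the NrasQ61K ones. Every Ezh2Y646N value lay under every NrasQ61K value, although the latter differed 3.25-fold from each other. The log2 difference was -3.05 (SE 0.57), and -1.97 without NrasQ61K replicate 1. Aldh1a1 (chromosome 19, 20492715 to 20643465) was at 8.39 and 3.11 against 5.50 and 7.38 CPM, with overlapping groups and a fitted log2 difference of -0.16 (SE 0.52). Aldh1a1 has a close copy, Aldh1a7, between which reads may have been divided.

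Aldh1a2 (chromosome 9, 71215789 to 71296243), the retinal dehydrogenase of many embryonic and mesenchymal tissues, was tested as another gene of the pathway and fell. It had 7 reads and 1 read in the Ezh2Y646N libraries, against 106 and 314 in the NrasQ61K ones, or 0.402 and 0.0691 against 6.70 and 15.1 CPM. The log2 difference was -5.43 (SE 0.77, edgeR's adjusted p = 0.0293), and it ran from -7.16 to -4.69 over the other settings, losing its call in limma voom alone (0.0942). It was 1 of 3 tested genes of the retinal oxidation list to pass in edgeR, where 0.673% of all genes were called lower. Aox1, an oxidase that can act on retinal, had a fitted log2 difference of 0.75 (SE 0.39, adjusted p = 0.461).

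Summed per kilobase, Aldh1a1, Aldh1a2 and Aldh1a3 reached 29.2 and 15.9 in the NrasQ61K libraries and 4.40 and 2.08 in the Ezh2Y646N ones. Aldh1a3 held 86.1% and 48.7% of that sum in NrasQ61K, where Aldh1a2 held 10.1% and 41.9%. In the Ezh2Y646N libraries Aldh1a1 held 38.6% and 30.2%, against 3.81% and 9.42% in the others, without a higher level of its own; with the longest transcript as length the shares were 49.9% and 40.5% against 5.97% and 15.5%. NrasQ61K replicate 1 was thus richest in Aldh1a3 and Stra6, and NrasQ61K replicate 2 in Aldh1a2 and Dhrs9.

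Beside the genes that were lower, hair shaft and inner root sheath markers summed to 540.0 and 268 CPM in the Ezh2Y646N libraries, against 3069.7 and 1591 CPM in the NrasQ61K ones. All 11 of its tested genes had a log2 difference below 0, with a median of -2.78, and 4 passed. Over all 14265 genes tested, 7703 lay below 0, 6562 above it, and 0.673% were called lower in edgeR. The fibroblast and dermal papilla markers summed to 850.1 and 2082 against 4143 and 2449.8 CPM, with 14 of 14 below 0 and 3 past the threshold. Endothelial markers (8 of 8) and those of macrophages and dendritic cells (9 of 9) were also below 0, with 0 past the threshold in edgeR. No marker of these 4 lists was at 0 in any library. Their part in the levels of Lrat, Stra6, Aldh1a3, Aldh1a2 and Dhrs9 was not tested. Melanocyte lineage markers were present throughout, at 3880.1 and 3970.1 against 2656 and 3457 CPM. Their sums did not overlap between groups, with 9 of 10 above 0 and 0 of 10 past the threshold in edgeR.

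**Figure D3:**
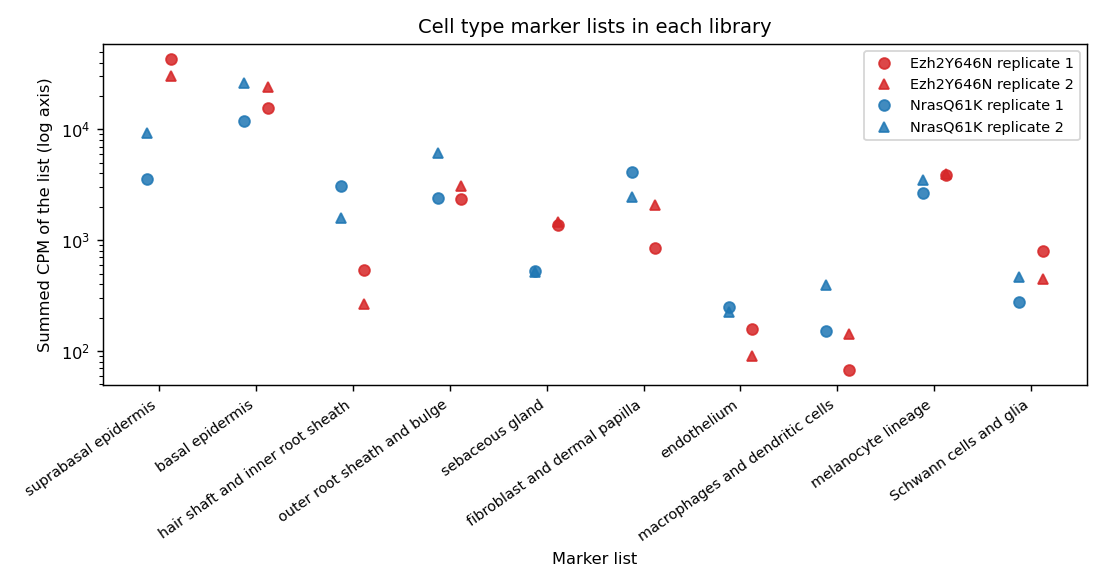
Summed level of each cell type marker list in each library, in CPM on a log axis (circles replicate 1, triangles replicate 2; blue NrasQ61K, red Ezh2Y646N). Suprabasal epidermis, sebaceous gland and melanocyte lineage sums are higher in both Ezh2Y646N libraries. Hair shaft, fibroblast, endothelium and macrophage sums are lower in both. Basal epidermis, outer root sheath and Schwann cell sums overlap between groups.

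Crabp2 (chromosome 3, 87948666 to 87953376), which carries retinoic acid to its nuclear receptors, was at 86.3 and 68.1 CPM in the Ezh2Y646N libraries, against 12.7 and 55.9 CPM in the NrasQ61K ones. The gap between groups was smaller than that within NrasQ61K, where the libraries differed 4.40-fold. The log2 difference was 1.17 (SE 0.57), and it moved to 0.47 when NrasQ61K replicate 1 was left out and to 2.64 when replicate 2 was. Crabp1, the related binding protein, lay the other way at 4.60 and 3.59 against 8.22 and 8.01 CPM (-0.98, SE 0.39, edgeR's adjusted p = 0.298). Fabp5, a fatty acid carrier that also binds retinoic acid, was the most abundant carrier and overlapped between groups (-0.17, SE 0.25, adjusted p = 0.848). The carrier list of 4 genes also counts nuclear receptors of the Ppar family. Of these 4 genes 0 passed with edgeR, with DESeq2 or with voom. An unadjusted p under 0.05 was reached in edgeR by 1 of them and by 14.3% of all genes.

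Cyp26b1 (chromosome 6, 84571414 to 84593908), which hydroxylates retinoic acid for removal, was at 6.38 and 6.22 CPM in the Ezh2Y646N libraries, against 5.69 and 11.4 CPM in the NrasQ61K ones. The groups overlapped, and the sign of its log2 difference of -0.44 (SE 0.43) turned to 0.19 without NrasQ61K replicate 2. Its relatives Cyp26a1 and Cyp26c1 were too low to be tested, at no more than 0.948 and 0.276 CPM in any library. Cyp2s1, another cytochrome that can act on retinoic acid, overlapped too (-0.17, SE 0.33, edgeR's adjusted p = 0.894).

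Rarg (chromosome 15, 102234938 to 102257517) was at 271 and 305 CPM in the Ezh2Y646N libraries, against 179 and 244 CPM in the NrasQ61K ones. The groups did not overlap, by a margin smaller than the spread within NrasQ61K, and the log2 difference was 0.45 (SE 0.25). Rarb (chromosome 14, 16430839 to 16819156), whose upstream stretch with the DR5 repeat is printed above, was at 7.47 and 5.32 against 5.94 and 6.23 CPM, a fitted log2 difference of 0.07 (SE 0.39). Its 4 values overlapped. Rarb's counts are uncertain, as 34.1% of its exon bases lie within exons of Top2b on the opposite strand, a gene at 516 to 650 CPM (649.7 at most), and the strand setting of the counting is not given.

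Per kilobase, Rarg made up 72.4% to 84.3% of the summed level of the 3 retinoic acid receptor genes in each library and Rarb 1.19% to 1.94%. Of the other receptors, Rara, Rxra, Rxrb and Rxrg, none passed with edgeR, DESeq2 or voom, nor at an unadjusted p under 0.05 (0 of 4, with 14.3% over all genes). Rxra, the partner of the retinoic acid receptors, was the most abundant, at 326 and 365 against 192 and 272 CPM (log2 difference 0.57, SE 0.26, adjusted p = 0.372). Of the 8 receptor coregulators none had groups free of overlap (44.2% of all genes), with 0 past the threshold in the same tools and 0 at an unadjusted p under 0.05 (14.3% of all genes). Nrip1, a corepressor of nuclear receptors, had a fitted log2 difference of -0.20 (SE 0.26).

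Genes known to respond to retinoic acid gave no call in edgeR, with 12 of 17 tested and a median of 0.00. An unadjusted p under 0.05 was reached by 5 of them (2 higher, 3 lower) and by 14.3% of all genes. DESeq2 called 1 higher and 1 lower, where it called 505 and 378 of 14415 genes. Tgm2, a transglutaminase that retinoic acid induces in many cells, was at 10.5 and 11.9 CPM in the Ezh2Y646N libraries, against 21.3 and 28.8 CPM in the NrasQ61K ones. Its groups did not overlap, and its log2 difference was -1.16 (SE 0.29, edgeR's adjusted p = 0.105), with 0.0381 in DESeq2. Rai14, the most abundant of the list, had one of -0.05 (SE 0.22). The genes with an unadjusted p under 0.05 thus lay on both sides.

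**Figure D4:**
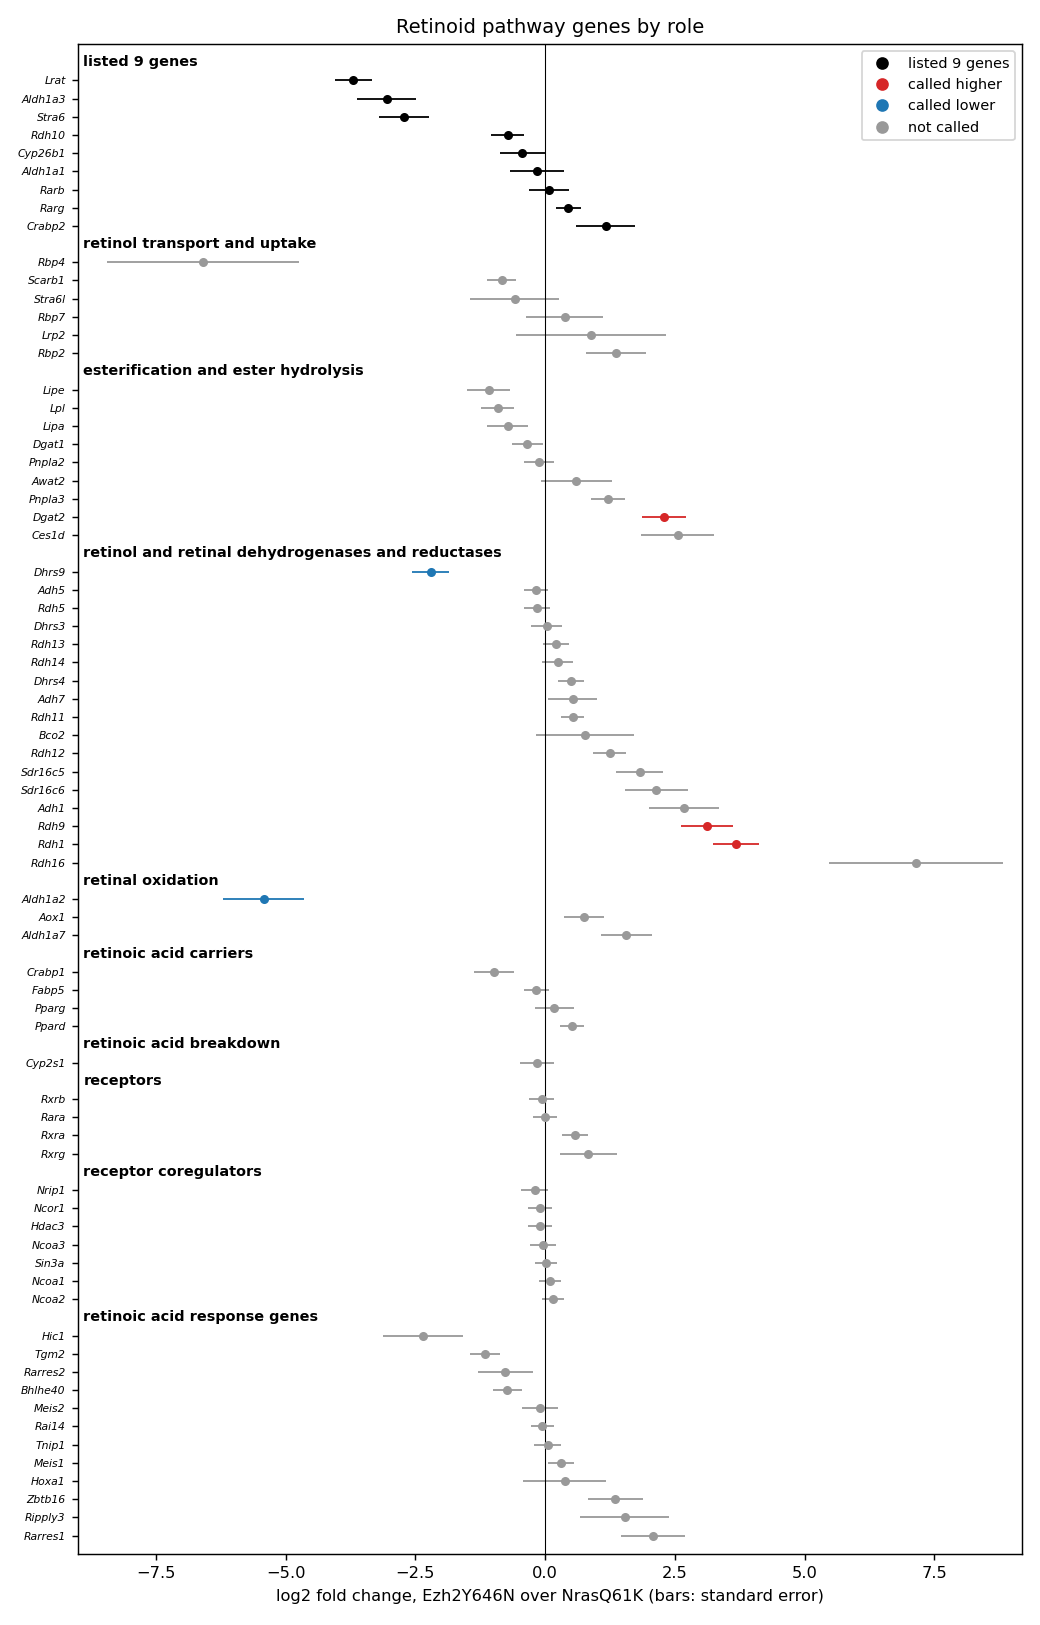
Log2 difference, Ezh2Y646N over NrasQ61K, for the 9 listed genes (black, no test shown) and 63 other retinoid pathway genes by role, with standard errors as bars; red and blue mark genes past the threshold. Rdh1, Rdh9 and Dgat2 are red and Aldh1a2 and Dhrs9 blue; the positions of Rbp4 and Rdh16, with a group at 0 reads, depend on the fit's prior count.

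Over the whole list of other retinoid genes, 65 of 79 with a row were tested. Of these, 3 rose and 2 fell, 4.62% and 3.08% of those tested, against 1.10% and 0.673% of all genes. This list and its parts by role were drawn up with earlier results of these data known, so nothing is read from these shares. The median log2 difference was 0.10 over the list and -0.04 over all genes, with 36 genes above 0 and 29 below. Untested genes had at most 1.45 CPM in any library. How many genes of the list were called varied with the library left out, as it did over all genes.

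Per kilobase of exon, the order of the listed genes differed between the groups. In the Ezh2Y646N libraries the mean levels were Rarg 67.6, Crabp2 58.4, Aldh1a3 1.97, Rdh10 1.91 and Stra6 1.31. Below these came Rarb 1.21, Cyp26b1 1.18, Aldh1a1 1.16 and Lrat 0.323. There the values of Crabp2 and Aldh1a3 did not overlap, nor did those of Rdh10 and Stra6 or of Aldh1a1 and Lrat. In the NrasQ61K libraries the mean levels were Rarg 49.6, Crabp2 25.9, Aldh1a3 16.5, Stra6 8.61 and Lrat 4.25. Below these came Rdh10 3.16, Cyp26b1 1.59, Aldh1a1 1.30 and Rarb 1.16. There the values of Stra6, Lrat, Rdh10 and Cyp26b1 did not overlap one another, and all other neighbours in either order overlapped. Rarg and Crabp2 thus led in both groups, and Lrat was last in one and in the middle of the other. With the longest transcript as length, Cyp26b1 lay below Aldh1a1 and Rarb in both groups, and Stra6 above Rdh10.

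The 5 genes whose pattern lay nearest to that of Lrat, by the Euclidean distance of log2 CPM (0.5 added) centred on each gene's mean over the 4 libraries, were Pthlh (0.251), F5 (0.484), Ggt1 (0.581), Pappa2 (0.612) and Krt75 (0.613). The median distance over 14264 genes was 3.40. Pthlh, which encodes parathyroid hormone-related protein, was at 1.90 and 1.24 CPM in the Ezh2Y646N libraries, against 18.7 and 16.6 CPM in the NrasQ61K ones. Krt75, a keratin of the companion layer of the hair follicle, was at 23.5 and 14.4 against 218 and 120 CPM (119.8). All 5 are described by closeness over 4 libraries, and nothing is read from it on function.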

How the data were processed

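RNA from 4 libraries of sorted cells was sequenced. What the authors deposited are raw counts of reads for each Ensembl identifier, per the file headers and the values. Per the submitters' processing notes, GRCm38, STAR 2.5.4b, bcl2fastq 2.19, featureCounts, Trimmomatic and edgeR were used, with no roles stated. Annotation release and strand setting: not given in the sources used here. Symbols, positions and exon lengths came from GENCODE M21 (22291 of 22524 identifiers found), and upstream sequences from RefSeq's GRCm38.p6 table. The spacing in the motif search was corrected after the Rarb stretch had been seen.

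The test was edgeR 4.0.16 (R 4.3.3): filterByExpr (minimum count 10, total 15), TMM scaling, robust quasi-likelihood fit on group with 2 residual degrees of freedom, Benjamini-Hochberg adjustment over 14265 genes at 0.05. The standard error was taken from the fold change and F statistic. P-values measure only the spread between these libraries. DESeq2 1.42.0, limma 3.58.1 (voom), RLE scaling, no filter, a fit that was not robust, a replicate block and leaving out each library were alternatives. In simulated data of this comparison (14076 genes), 16% of 2-fold and 92% of 4-fold changes were recovered, with 10 false calls. How far these rates hold for genes with uneven libraries was not tested. By group means, Adh1 was 6.43-fold higher in Ezh2Y646N and was not called in edgeR (adjusted p = 0.107). Dgat2 was 4.91-fold higher and was called (0.0498). An uncalled gene is thus not shown to differ by less than 4-fold.

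The 9 genes and all lists were chosen with earlier results of these data known. By the naming rule, pathway genes past the threshold (at most 12), each list's most abundant and smallest-p gene, and the 5 genes nearest to Lrat were named. Adh1, Pnpla3, Rdh12, Rdh16, Sdr16c5, Dgat1 and the other family members named fall outside it and were chosen after their values were seen. Of 81 other pathway genes listed 79 had a row; some are counted in their lists but not reported here by name.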

Additional observations from a re-analysis of the deposited data

How the results depend on the processing

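Called genes among the 9 listed numbered 3, and 1 in limma voom. Other retinoid genes called higher and lower numbered 3 and 2, against 13 and 6 with no filter on low counts, 10 and 4 in DESeq2, and 3 and 1 in voom. All calls numbered 253, against 1302 with no filter and 883 in DESeq2; the cause was not tested. With the replicate block they were 9 higher, 7 lower and 1337 in all. Stra6 and Dgat2 then lost their calls (Dgat2 adjusted p 0.0860). Pnpla3 (0.0247), Scarb1 (0.0197), Rdh12, Rdh16 and Tgm2 were among the genes that gained one. The labels do not say that a number pairs libraries, and deviations of the libraries numbered 1 correlated at r = 0.141 across genes. Leaving out 1 library gave 1 to 4 listed genes, 1 to 11 other genes higher, 1 to 4 lower, and 92 to 1123 calls in all. It turned the sign of Aldh1a1 (log2 fold change -1.05 to 0.37), Cyp26b1 (-0.85 to 0.19), Rarb (-0.19 to 0.29), Nrip1 (-0.42 to 0.11), Cyp2s1 (-0.47 to 0.22) and Rai14 (-0.13 to 0.0768). Aldh1a3 lost its call with RLE size factors, and Aldh1a3 and Stra6 in voom. With 2 libraries a group, 2-fold changes were mostly not detectable.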

Other observations

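Rdh1 and Rdh9 lie in a run of short-chain dehydrogenase genes on chromosome 10 (127759721 to 127911761), which was looked at after their values were seen. The count files hold 8 genes there. Sdr9c7, which encodes a dehydrogenase of the epidermal lipid barrier and lies at the far end, was at 30.5 and 21.5 CPM in the Ezh2Y646N libraries, against 1.96 and 2.40 CPM in the NrasQ61K ones (fitted log2 difference 3.57, SE 0.35, edgeR's adjusted p = 0.0220). Rdh16f1, which shares exons with Rdh9, was at 33.7 and 27.8 against 1.33 and 5.66 CPM (3.11, adjusted p = 0.0499). Rdh16 was not called in edgeR (0.102) but was in DESeq2 (0.0326). Between them, Rdh19, Rdh16f2 and Rdh7 were at or near 0 in every library, with at most 0.0691 CPM. Higher levels in the Ezh2Y646N libraries were thus seen at both ends of the run, with barely detected genes between.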
